A study of Mus musculus with 6 samples.

Results

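The constitutive proteasome subunits were followed in sorted C5aR+ LysoDCs of the mouse Peyer's patch. LysoDCs are lysozyme-expressing mononuclear phagocytes that live under the epithelium covering intestinal lymphoid follicles, and C5aR is the receptor for the complement fragment C5a. The genes were chosen by symbol alone, as those named Psma, Psmb, Psmc, Psmd or Psme followed by a digit, without the immunoproteasome genes Psmb8, Psmb9 and Psmb10. This gave 42 of the 22911 genes that the array's RefSeq accessions named, and 34 of the 42 were bright enough to be tested, among 4488 genes tested in all, of which 3276 had a symbol and 1212 were probes without one, each counted as a gene of its own.

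The study compared 3 untreated samples (C5a at 0 nM) with 3 samples given recombinant C5a at 100 nM for 3 h, each on its own 1-colour array. Per the labels, CD11c+ cells had been enriched from Peyer's patches before the sort, and the sorted cells of both groups were kept in medium with CSF-1 and a factor spelled CFS-2. Strain, genotype and age of the mice and the culture time of the untreated cells are not given in the sources used here. Nothing in the labels says whether samples of 1 group came from separate mice or sorts, so the errors below measure only the spread between these samples, which may be technical.

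The proteasome is the main protease that degrades proteins tagged with ubiquitin in the cytosol and nucleus. Its 20S core is a barrel of stacked rings: outer alpha rings (Psma) gate the entry, and inner beta rings (Psmb) hold the cutting sites. A 19S cap binds the tagged protein, strips off the ubiquitin in its lid (Psmd) and unfolds the chain with a ring of ATPases in its base (Psmc), while Psme proteins form other caps. In antigen-presenting cells the peptides it makes feed the MHC class I pathway, and an inflammatory signal can exchange catalytic beta subunits for the immunoproteasome forms.

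Proteasome genes are known to be raised together by the transcription factor Nfe2l1, which binds antioxidant response elements, when proteasome capacity is short. Promoter windows of RefSeq (assembly GRCm38.p6, 250 bases before to 50 bases after each start) were at hand for 35 of the 42 genes and were searched on both strands for 3 motifs. The first pair differ in a fixed letter, so no stretch of a strand matches both at the same place. The core TGACNNNGC (GCNNNGTCA on the other strand) stood in 6 of the 38 windows of these genes, or 15.8%, against 12.4% of 32851 windows of all genes. A related form, TGAGNNNGC, stood in 13 of 38 windows (34.2%) against 17.6% of all, and the CCAAT box, written CCAAT or ATTGG, in 15 of 38 (39.5%) against 37.4%. These are matches of letters and no evidence of binding. The stretches around the TGACNNNGC core in the 5 tested genes that hold it are shown because their values are described below, with the core in capitals and each written 5′ to 3′ along the gene's strand.
Psmb5, chr14:54618009-54618067, minus strand: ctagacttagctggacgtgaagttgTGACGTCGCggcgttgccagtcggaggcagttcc
Psmb6, chr11:70525323-70525381, plus strand: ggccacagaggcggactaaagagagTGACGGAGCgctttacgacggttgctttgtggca
Psmc6, chr14:45329574-45329630, plus strand: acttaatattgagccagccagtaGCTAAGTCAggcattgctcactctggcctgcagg
Psmd12, chr11:107479278-107479314, plus strand: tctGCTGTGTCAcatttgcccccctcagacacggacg
Psme4, chr11:30771743-30771801, plus strand: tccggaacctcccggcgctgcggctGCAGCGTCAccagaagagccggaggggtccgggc
Counted from the start of the gene, the core began at -9 in Psmb6, -7 in Psme4, -47 in Psmb5, -227 in Psmc6 and -247 in Psmd12. On the log2 scale described below, these 5 genes differed between C5a and untreated by 0.26, 0.76, -0.04, 0.09 and -0.47 in that order, which is no common direction.

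Arrays differed in brightness, and 2728 to 6959 of 56605 probes per array were well above background by the scanner software's flag. Levels below are in log2 units and set so that 0 is the array's own 75th percentile, taken across probes that passed this flag on all 6 arrays. A level belongs to its probe, and levels of different probes do not rank the genes. The sorted cells' markers were checked: 10 of 12 phagocyte genes were tested, Cx3cr1 and Mertk were well above background on 0 arrays, and C5ar1 on 3. Of other cell types, the markers of epithelium and of stroma and the T cell genes Cd3d, Cd3e, Cd3g and Cd8a were above background on 0 arrays. Of B cell genes, Cd79b was so on 3 arrays and Cd79a, Ms4a1 and Pax5 on 0. Of neutrophil genes, Csf3r was so on 6 arrays and S100a8, S100a9 and Retnlg on 0. The 4 plasmacytoid dendritic cell genes were tested, and their log2 summed level was 0.20, -0.25 and -1.20 in the untreated samples and -0.82, 0.19 and -0.48 with C5a, in the order of their numbers. Their part in the values below was not tested. In such bulk samples, fewer cells of a type and less RNA per cell cannot be told apart.

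Most proteasome genes were detected in the LysoDCs. Counting each gene's brightest probe, 32, 34 and 26 of 42 were well above background in the untreated samples and 31, 35 and 29 in the C5a samples, which is 61.9% to 83.3% of them. Over all named genes, any probe was well above background for 7.33% to 19.85%. The fewest proteasome genes were seen on untreated 3, the array with the fewest detected probes of any kind.

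Detection covered each part of the particle. In the alpha ring, 7 of 8 genes were tested and all 7 were above background on all 6 arrays; the other, Psma8, is a testis form of the ring and was on 0 arrays. In the beta ring 6 of 8 were tested, and neither Psmb2, a structural member, nor Psmb11, the form of thymic epithelium, was seen on any array. Of the 6 base ATPases only Psmc5 was not tested, being above background on C5a 2 alone. All 3 other base genes (Psmd1, Psmd2 and Psmd4) and all 8 lid genes were tested.

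The assembly chaperones of the base were the part least often seen: Psmd10 was on all 6 arrays, and Psmd5 and Psmd9 on 0. Of the Psme genes on the array, all 4 were tested. Psme2 had no probe under its own accession; its near-identical copy Psme2b had, and a probe of this kind may read both. Psmc3ip and Psme3ip1 match the symbol rule but encode proteins outside the particle, and both were on 0 arrays. None of the 34 tested genes passed the detection filter through 1 group alone.

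**Figure D1:**
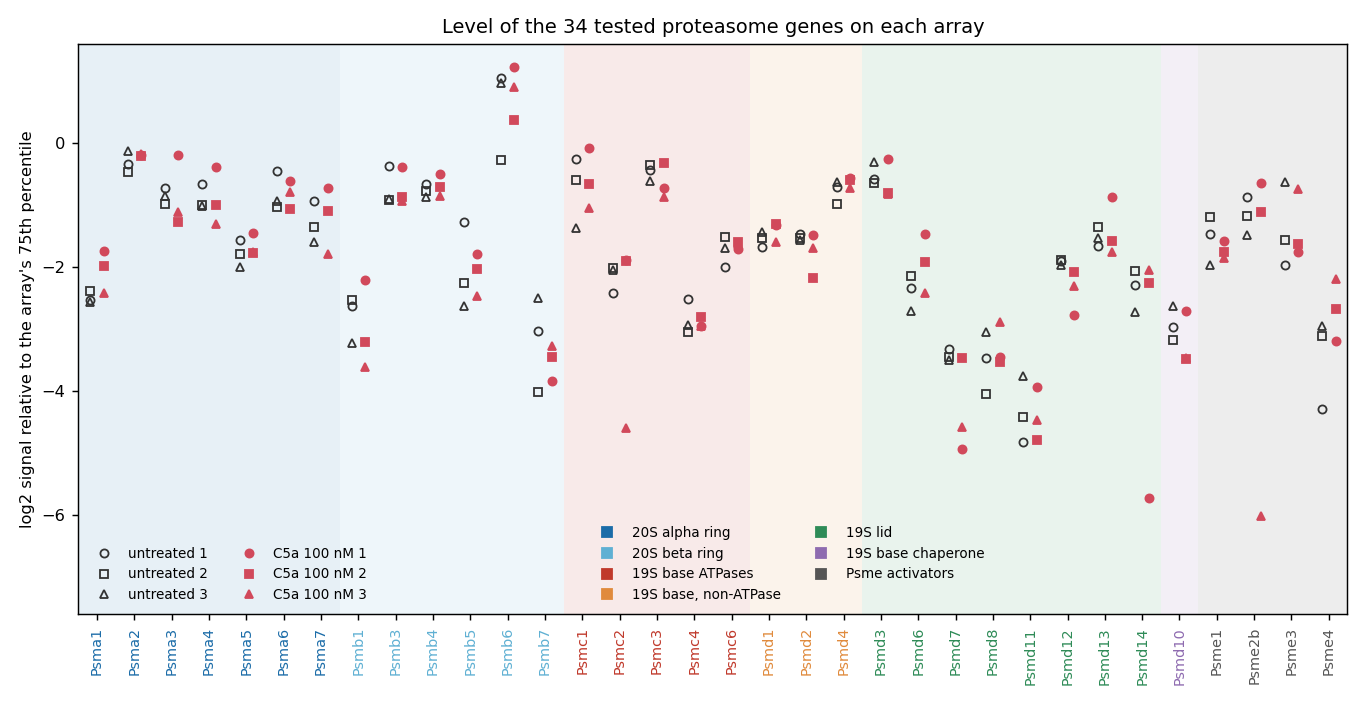
Level of each tested proteasome gene on each of the 6 arrays, in log2 units relative to the array's 75th percentile over detected probes, grouped by particle part; each point is 1 array, untreated or C5a. The groups overlap in every gene but Psmd12. Psmc2, Psmd14 and Psme2b each have 1 array far below the other 5, on which the probe was not well above background.

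C5a left no detectable mark on the group. None of the 34 passed limma's test at a Benjamini-Hochberg adjusted p under 0.05 over all genes, nor did any of the 4488 genes (percentage called 0). At an unadjusted p under 0.05 none of the 34 passed either, against 106 genes, or 2.36% of all tested. With the replicate number as a block, 1 of the 34 did (Psme4), against 191 genes, or 4.26%. Without the block, the lowest unadjusted p of the group was 0.063, for Psmd7, and every adjusted p of limma was 0.999. Of the 34 differences between C5a and untreated, 16 were positive and 18 negative, with a median of -0.0022, against 54.9% positive and a median of 0.04 over all genes tested.

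The differences were also small in size. The median size was 0.14 in the 34 genes and 0.22 over all 4488, and 29 of the 34 (85.3%) differed by less than 0.5, which is 1.41-fold, against 80.6% of all genes. The proteasome genes were also brighter: 70.6% of them were above background on all 6 arrays, against 48.6% of all genes tested. Among genes on all 6 arrays, the median size was 0.12 for 24 proteasome genes and 0.15 for 2179 genes. The 95% confidence interval of a typical proteasome gene, not adjusted for the number of genes, reached 0.76 to either side of its difference, or 1.70-fold. A measured difference smaller than a gene's own reach cannot be told from 0 by its interval. The reach is no limit on the size of a true change that could be found or missed. Larger differences could also go uncalled at the adjusted threshold: that of Psmd7, -0.90, had a limma adjusted p of 0.999.

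**Figure D2:**
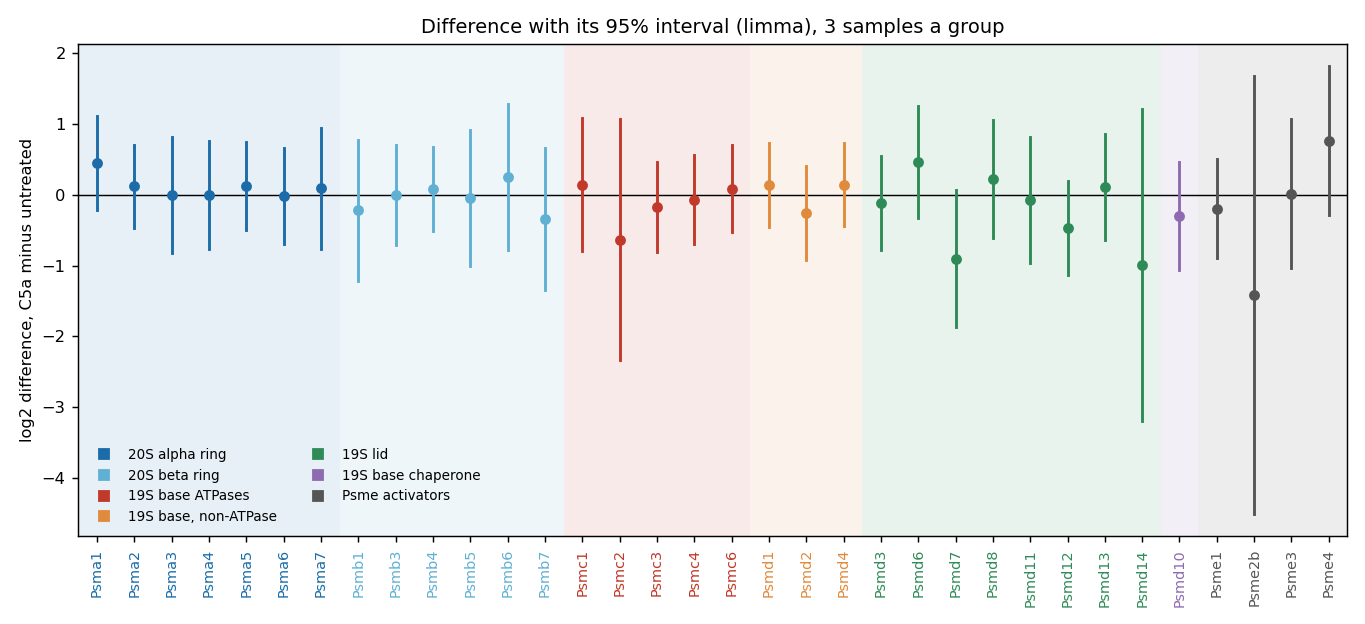
Difference between the C5a and untreated means (log2) of each tested proteasome gene with its 95% confidence interval from limma, grouped by particle part. Every interval includes 0, and the widest belong to Psme2b, Psmd14 and Psmc2.

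In the alpha ring, 5 differences were positive and 2 negative, with a median of 0.09. Psma2 had the lowest error of the 34: it read -0.33, -0.47 and -0.12 untreated and -0.18, -0.20 and -0.17 with C5a (here and below in the order of samples 1, 2 and 3), a difference of 0.12 (SE 0.25). The C5a values lay within the untreated range. Psma5 read -1.56, -1.79 and -1.99 untreated and -1.45, -1.77 and -1.76 with C5a, a difference of 0.13 (SE 0.27). Psma1 read -2.52, -2.38 and -2.57 untreated and -1.73, -1.98 and -2.41 with C5a. Its difference of 0.45 (SE 0.28, limma unadjusted p = 0.154) was the largest of the ring, and C5a 3 overlapped the untreated samples.

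The outer ring's other genes stood close to 0. Psma3 read -0.72, -0.98 and -0.86 untreated and -0.19, -1.26 and -1.10 with C5a, and its difference was -0.0021 (SE 0.35). Psma4 read -0.67, -0.996 and -1.02 untreated and -0.38, -1.004 and -1.30 with C5a, a difference of 0.00099 (SE 0.32). In both genes C5a 1 was the highest sample and the other C5a samples lay near or below the lowest untreated one. Psma6 read -0.45, -1.02 and -0.93 untreated and -0.60, -1.07 and -0.78 with C5a, a difference of -0.02 (SE 0.29), with the groups overlapping. Psma7 differed by 0.09 (SE 0.36).

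The probes of these genes did not settle a direction. A further kept probe of Psma3 gave 0.91 where the brightest gave -0.0021; it read -3.41, -3.13 and -5.39 untreated and -3.05, -3.42 and -2.74 with C5a, and untreated 3 was not well above background. One of Psma6 gave 0.16 against -0.02, and the 3 further probes of Psma4 ran from -0.18 to 0.60. In the whole group, 9 genes had several kept probes and 6 of these had one of the opposite sign.

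The beta ring had 2 positive and 4 negative differences, with a median of -0.02. Of the catalytic subunits, Psmb6, which cuts after acidic residues, read 1.05, -0.27 and 0.97 untreated and 1.23, 0.37 and 0.91 with C5a, a difference of 0.26 (SE 0.44). The low samples were number 2 of each group, and the groups overlapped. Its other kept probe read 0.27, -0.63 and -0.17 untreated and -0.02, -0.90 and -0.73 with C5a, a difference of -0.37. Psmb5, the chymotrypsin-like subunit, differed by -0.04 (SE 0.41), and Psmb7, the trypsin-like one, by -0.34 (SE 0.43) on 4 arrays.

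Of the structural beta subunits, Psmb4 was the steadiest. It read -0.66, -0.77 and -0.87 untreated and -0.49, -0.70 and -0.85 with C5a, a difference of 0.09 (SE 0.25). Psmb3 differed by -0.0023 (SE 0.30) and Psmb1 by -0.22 (SE 0.42). The 3 catalytic genes had spreads within a group (SD) of 0.29 to 0.77, while both groups of Psmb4 had an SD under 0.2. The other structural genes lay within the catalytic range, with 0.37 untreated and 0.73 with C5a for Psmb1, and 0.31 and 0.30 for Psmb3.

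The base ATPases had 2 positive and 3 negative differences, with a median of -0.07. Psmc6 read -2.002, -1.51 and -1.69 untreated and -1.70, -1.60 and -1.63 with C5a, a difference of 0.09 (SE 0.26). Psmc3 read -0.44, -0.35 and -0.60 untreated and -0.73, -0.31 and -0.86 with C5a, a difference of -0.17 (SE 0.27). The C5a values of Psmc6 lay within its untreated range, while those of Psmc3 reached past it on both sides. Psmc1 differed by 0.14 (SE 0.40) and Psmc4 by -0.07 (SE 0.27).

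Psmc2 was decided by 1 array. It read -2.42, -2.02 and -2.04 untreated and -1.88, -1.91 and -4.60 with C5a, where C5a 3 was not well above background. Its difference was -0.63 (SE 0.72) with all samples and 0.27 (SE 0.32) without C5a 3. An array more than 2 log2 units, or 4-fold, under the other 5 occurred in 116 genes, 2.58% of all tested, and in 3 of the 34: Psmc2 and Psme2b on C5a 3 and Psmd14 on C5a 1.

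The scaffold and receptor genes of the base were tight. Psmd1, a scaffold, read -1.67, -1.52 and -1.43 untreated and -1.31, -1.31 and -1.60 with C5a, a difference of 0.14 (SE 0.25); its other kept probe gave -0.04. Psmd2, the other scaffold, read -1.47, -1.53 and -1.56 untreated and -1.48, -2.18 and -1.69 with C5a, a difference of -0.26 (SE 0.28, limma unadjusted p = 0.385). Psmd4, a ubiquitin receptor, read -0.71, -0.97 and -0.63 untreated and -0.56, -0.59 and -0.72 with C5a, a difference of 0.15 (SE 0.25), and its other probe gave -0.16. In all 3 the groups overlapped.

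The lid, with 8 of the 34 genes, had 3 positive and 5 negative differences and a median of -0.09. Psmd12 was the only gene of the 34 whose groups did not overlap, which 104 genes, or 2.32% of all tested, showed in that direction. It read -1.90, -1.88 and -1.97 untreated and -2.77, -2.09 and -2.31 with C5a, a difference of -0.47 (SE 0.28, limma unadjusted p = 0.137). None of the 34 had all C5a samples above all untreated ones, against 152 genes, or 3.39%. In either direction it was 1 of the 34 against 256 genes, or 5.7%. Psmd7, partner of the lid's deubiquitinase, read -3.32, -3.46 and -3.50 untreated and -4.93, -3.46 and -4.59 with C5a. Its difference was -0.90 (SE 0.41, limma unadjusted p = 0.063), C5a 2 lay among the untreated samples, and its probe was well above background on only 3 arrays.

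Psmd14, the deubiquitinase that strips ubiquitin from the bound protein, had 1 sample apart. It read -2.28, -2.07 and -2.73 untreated and -5.73, -2.25 and -2.05 with C5a, where C5a 1 and untreated 3 were not well above background. Its difference was -0.99 (SE 0.94) and became 0.21 (SE 0.34) without C5a 1. Untreated 1 to 3 and C5a 1 lay in row 1 of the slide and C5a 2 and 3 in row 2. With the row as a covariate, a fit that leaves C5a 1 alone against the untreated samples in every gene, the difference of Psmd14 was -3.37 (limma adjusted p = 0.123), which is that same sample.

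The lid's other genes showed no common direction. Psmd6 read -2.34, -2.14 and -2.71 untreated and -1.47, -1.92 and -2.42 with C5a, a difference of 0.46 (SE 0.34, limma unadjusted p = 0.209), and its second probe gave 0.55. Psmd8 read -3.46, -4.05 and -3.05 untreated and -3.45, -3.53 and -2.89 with C5a, a difference of 0.23 (SE 0.35). In both, C5a and untreated samples overlapped. Psmd13, Psmd3 and Psmd11 differed by 0.11 (SE 0.32), -0.12 (SE 0.28) and -0.07 (SE 0.38). Psmd10, a chaperone of base assembly, differed by -0.30 (SE 0.32).

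The Psme genes had 2 positive and 2 negative differences. Psme4, which forms a cap that opens the core without ATP, read -4.28, -3.12 and -2.96 untreated and -3.19, -2.68 and -2.20 with C5a, above background on 1 untreated and 3 C5a arrays. Its difference of 0.76 (SE 0.45, limma unadjusted p = 0.130) became 0.35 without untreated 1, which was not well above background, and -0.10 under normexp background correction. The lowest C5a sample lay under untreated 2 and untreated 3. Within numbers 1, 2 and 3 the C5a sample was higher by 1.09, 0.44 and 0.76, and limma with the replicate number as a block gave an unadjusted p of 0.0256 and an adjusted p of 0.927. Psme2b read -0.86, -1.17 and -1.48 untreated and -0.65, -1.11 and -6.01 with C5a, where C5a 3 was not well above background. Its difference was -1.42 (SE 1.31) and became 0.29 (SE 0.36) without C5a 3. Its other probe had no such array, reading -2.81, -3.27 and -2.99 untreated and -2.76, -3.33 and -3.40 with C5a, with a difference of -0.14. Psme1, whose product joins Psme2 in the interferon-induced cap, differed by -0.19 (SE 0.30), and Psme3, which forms a nuclear cap, by 0.01 (SE 0.45).

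**Figure D3:**
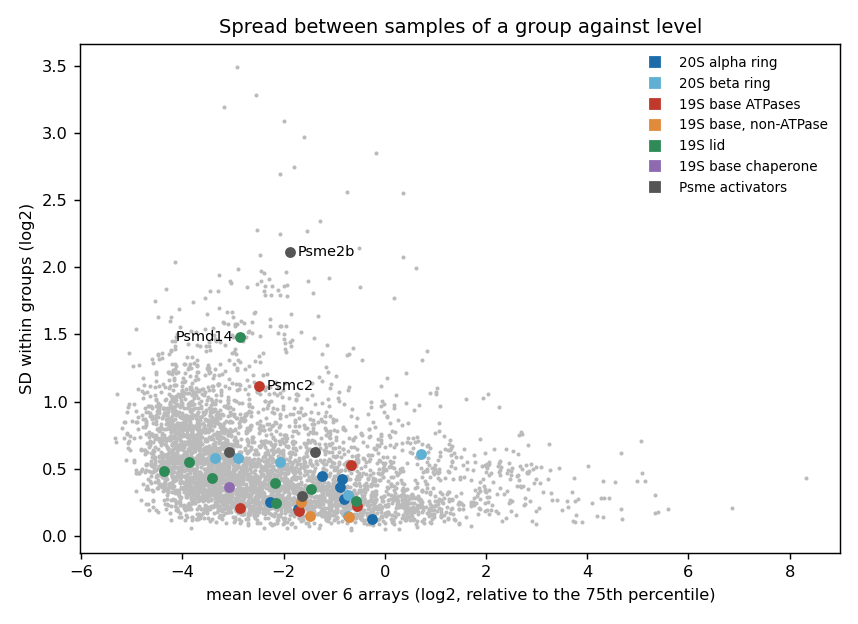
Spread of each gene within its groups (SD, log2) against its mean level (log2 relative to the 75th percentile), for the 34 proteasome genes over all 4488 tested genes. The median SD is 0.36 in the proteasome genes and 0.47 over all genes, and Psmc2, Psmd14 and Psme2b have the largest SD of the 34.

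The median SD within groups was 0.36 in the 34 genes and 0.47 over all genes tested, and among genes on all 6 arrays it was 0.28 in 24 proteasome genes and 0.34 in 2179. The median level of the 34 was -1.61, -1.53 and -1.64 untreated and -1.47, -1.70 and -1.77 with C5a, and no array stood apart in this median. Over the 34 genes, the correlation between 2 arrays ran from 0.599 to 0.958, against 0.844 to 0.960 over all genes tested. It ran from 0.867 to 0.958 over the 31 genes other than Psmc2, Psmd14 and Psme2b, which were set aside after their single low arrays were seen. The 10 genes on 3 to 5 arrays had 2 positive and 8 negative differences with a median of -0.28, against a median of 0.09 over the 2309 such genes in all; 3 of the 10 are Psmc2, Psmd14 and Psme2b with their single low arrays.

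A pattern over replicate numbers was looked at after the values were seen. Samples that share a number deviated together from their group means, with correlations over genes of 0.21, 0.27 and 0.38 for numbers 1, 2 and 3. Number 3 lay under number 1 in both groups for 11 of the 13 tested genes of the core rings (84.6%), for 18 of the 34 proteasome genes (52.9%) and for 37.4% of all genes tested. The exceptions in the rings were Psma2 and Psmb7. Outside the rings, number 3 lay under number 1 in both groups for 3 of 5 base ATPases and 1 of 3 other base genes. It did so for 1 of 8 lid genes, 2 of 4 Psme genes and 0 of 1 base chaperone genes. Number 3 lay over number 1 in both groups for 6 of the 34 (17.6%) and for 28.2% of all genes. Both number 1 samples lay over the other 4 samples for 9 of the 13 ring genes (69.2%) and for 13.8% of all genes. With the percentile taken over all probes, this held for 0 ring genes and for only 0.56% of all genes. After quantile normalization it held for 69.2% of ring genes against 13.0% of all, and after normexp background correction for 46.2% against 5.6%. The median of number 3 less number 1 was -0.37 in the rings and -0.11 over all genes.

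Examples from the core were Psmb5, which read -1.28, -2.25 and -2.63 untreated and -1.79, -2.03 and -2.46 with C5a, and Psma7, which read -0.94, -1.35 and -1.60 untreated and -0.72, -1.10 and -1.78 with C5a. In the cap, Psmc1 read -0.26, -0.59 and -1.37 untreated and -0.08, -0.66 and -1.04 with C5a. In each, number 1 was the highest and number 3 the lowest sample of its group. Psme3 ran the other way, with -1.97, -1.55 and -0.63 untreated and -1.75, -1.63 and -0.74 with C5a. A limma F test over the 3 numbers called 0 genes after adjustment and 803 genes (17.9%) at an unadjusted p under 0.05, 4 of them proteasome genes (11.8%). In the rings it was 1 of 13 genes (7.7%), Psmb6, whose low samples were those of number 2.

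The pattern of the rings depended on scaling in its size. The share of ring genes with number 3 under number 1 in both groups was 92.3% with the 75th percentile over all probes, where it was 59.4% over all genes. It was 76.9% against 38.6% after quantile normalization, and 46.2% against 14.0% after normexp background correction. Array brightness also followed the numbers. In the order of samples 1, 2 and 3, 3574, 6959 and 2728 probes were well above background untreated. With C5a they were 4864, 6651 and 3668, so number 3 had the fewest and number 2 the most in both groups. The part of brightness in the pattern was not tested. What the numbers mark is not said in the labels, and a shared batch, animal, day or array brightness cannot be told apart.

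**Figure D4:**
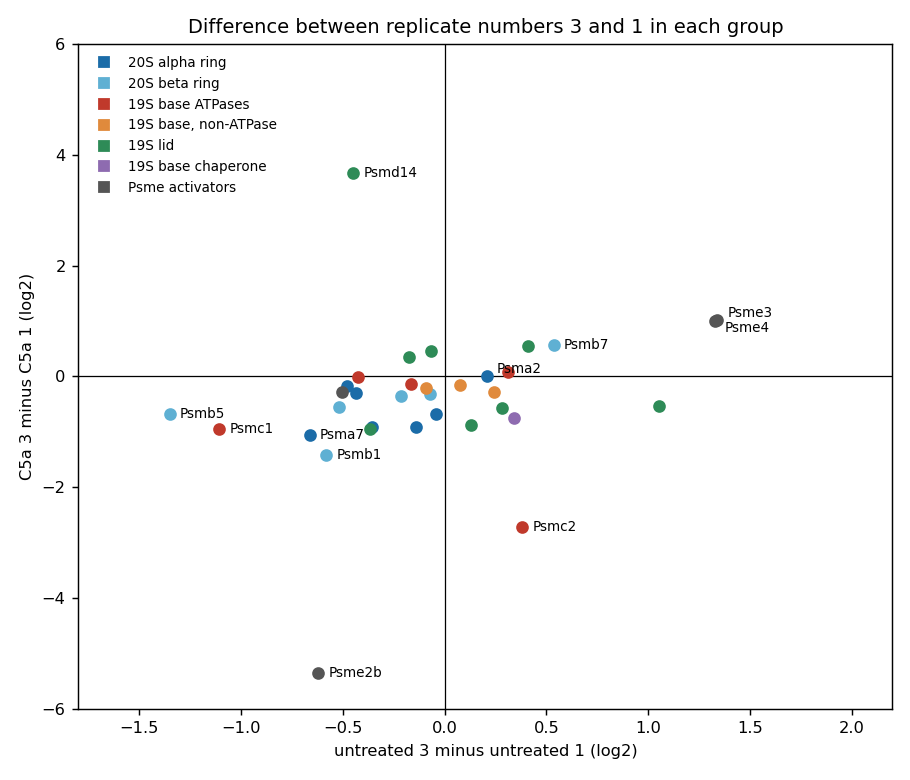
Number 3 less number 1 in the untreated group (horizontal) and in the C5a group (vertical), both in log2 units, for each of the 34 tested proteasome genes, coloured by particle part. The ring genes lie mostly in the lower left, where number 3 is lower in both groups, while Psme3 and Psme4 lie in the upper right.

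Other genes of the pathway, from lists of ubiquitin genes, shuttle factors, assembly factors, regulators and immunoproteasome subunits, passed no test either. Of 38 on the array, 21 were tested, with 11 positive and 10 negative differences and a median of 0.01, and 0 passed at an adjusted or an unadjusted p under 0.05. Among the immunoproteasome genes, which replace catalytic beta subunits, Psmb8 read -2.12, -2.58 and -3.46 untreated and -2.37, -2.55 and -3.49 with C5a, a difference of -0.08 (SE 0.46). Psmb10 read -2.46, -1.81 and -2.66 untreated and -1.95, -1.99 and -2.54 with C5a, a difference of 0.15 (SE 0.34). In both, the groups overlapped. Psmb9 read -3.69, -4.21 and -5.28 untreated and -3.79, -3.79 and -3.91 with C5a, a difference of 0.57 (SE 0.42), above background on 1 untreated and 2 C5a arrays.

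Of the ubiquitin genes, Uba1, the main ubiquitin-activating enzyme, read -1.60, -1.21 and -1.30 untreated and -2.02, -1.45 and -1.88 with C5a, a difference of -0.41 (SE 0.28). Ubb, a polyubiquitin precursor, read 3.21, 3.00 and 2.48 untreated and 2.79, 2.74 and 2.13 with C5a, a difference of -0.35 (SE 0.33). Neither separated the groups. Nploc4, a cofactor of the segregase Vcp, read -2.53, -2.63 and -2.71 untreated and -3.20, -2.92 and -2.78 with C5a, a difference of -0.34 (SE 0.26, limma unadjusted p = 0.221). Its groups did not overlap, which 104 genes, or 2.32% of all tested, showed in that direction. Rad23b, which shuttles ubiquitin-tagged proteins to the proteasome, read -2.13, -1.64 and -2.04 untreated and -1.82, -1.70 and -1.40 with C5a, a difference of 0.30 (SE 0.28). Of the regulators, Nfe2l2 read -4.46, -2.97 and -2.74 untreated and -2.65, -2.92 and -3.21 with C5a, a difference of 0.46 (SE 0.48), and Nfe2l1 differed by 0.24 (SE 0.53). For Rad23b and Nfe2l2, too, the groups overlapped.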

How the data were processed

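Per the file headers, the authors deposited 1-colour (Cy3) scanner files with a processed signal per spot, an intensity with background subtracted within the array and not scaled between arrays, and flags of other kinds, set per spot, for signal well above background and outliers. The deposited value table holds log2 values; 98.8% of its differences between arrays lay within 0.01 of log2 processed signal less the 75th percentile over all probes, its column medians were 0.17, -0.08, 0.18, 0.01, -0.02 and 0.22, and its baseline per probe is unknown. It served as an alternative.

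Control spots (62976 spots, 59305 not controls) and outlier spots (112 to 138 per array) were left out, and spots of a probe were averaged; 0 spots were saturated. Probes were named through RefSeq accessions without versions (32994 of 56605 matched). Each array's 75th percentile of log2 signal, over 2371 probes well above background on all 6 arrays, was subtracted. The 4958 probes well above background on at least 3 arrays were kept, and the brightest of each gene was used. Differences were tested with limma 3.58.1 in R 4.3.3 (lmFit, eBayes; Benjamini-Hochberg over 4488 genes), and the procedure was tested on simulated data. The slide was 1 and the scan 1 for all arrays, and the number of arrays limits the precision. The planned normexp correction on mean spot signal used the median spot signal, the column at hand.

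The members and lists were chosen with earlier results of these data known. Values in every sample are given for the 8 members on all 6 arrays with the lowest SE, the 5 with the smallest p in each direction and those whose probes differ in sign, and for pathway genes with the 3 smallest p in each direction and the immunoproteasome; Psmc2 and the members shown for the replicate numbers were chosen after their values were seen. Same-numbered samples correlated at 0.21, 0.27 and 0.38 in their deviations from group means, each over 0.1. A fit with the number as a block is therefore given as an alternative. The main fit did not pair the samples, and it gave every difference, error, interval and p-value for which no block or other alternative is named.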

Additional observations from a re-analysis of the deposited data

How the results depend on the processing

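Over 19 alternatives (18 for the 9 tested proteasome genes with no probe on all 6 arrays; 637 values), 0 passed an adjusted p under 0.05, 550 kept their direction and 87 turned sign; the lowest adjusted p was 0.123, for Psmd14 with the slide row as a covariate. The sign turned under none of the alternatives run in 6 genes (Psma1, Psma5, Psmd1, Psmd6, Psmd7 and Psmd12). The members' median difference, -0.0022, became 0.36 with the 75th percentile over all probes and 0.36 with the deposited value table, both of which moved the median of all genes to 0.40, and 0.26 with the slide row as a covariate (all genes 0.14). Since C5a 2 and 3 alone lie in row 2, that covariate sets C5a 1 alone against the untreated samples and assumes that it varies like the others, so it is no check of the group. Leaving out 1 sample, it ran from -0.14 (without C5a 1) to 0.11 (without C5a 3). Less the median of all genes, a measure added after the data were seen, it was -0.04, and 0.35 with no filter on dim probes (42 members; the cause was not tested), 0.12 with the slide row and -0.10 after quantile normalization, and it ran from -0.15 (without C5a 1) to 0.05 (without untreated 1) when 1 sample was left out. With no filter on dim probes 47 of 46522 genes and unnamed probes were called, 9 higher and 38 lower, 0 of them members. With the replicate block, limma called 0 genes and the members' median was -0.0022; the block lowered the SE of Psme4 to 0.24 (unadjusted p = 0.0256, adjusted p = 0.927), and changed no call at the adjusted threshold. Signals under background kept 8 of the 42 genes out of the tests.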
